A study of Mus musculus with 4 samples.

Results

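The genes described here encode the proteins of the cytosolic ribosome, the particle that translates nuclear-encoded mRNA. Members were chosen by name and by their counts: the mouse symbols Rpl or Rps followed by digits and an optional a, x or l, with Rplp0, Rplp1, Rplp2 and Rpsa, that the reference does not class as pseudogenes and that held at least 50 counts in every library. Of 53647 genes in the count tables, 83 had such a name. Among these, 3 were classed as pseudogenes (Rpl6l, Rpl32l and Rps4l) and 4 fell under the minimum (Rpl24, Rpl3l, Rpl10l and Rpl39l), which left 76 members, 45 of the large and 31 of the small subunit. The names were checked against a list of 80 cytosolic ribosomal proteins that includes Rack1: 75 of the 80 were members, and Rps27l, a close relative of Rps27, was the only member outside it. The minimum is a level, so levels are given as a description.

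A ribosome is built from ribosomal RNA and a fixed set of proteins, 1 copy of each in most cases, so the mRNAs of these proteins are made in concert. The large subunit forms the peptide bond and holds the tunnel through which the new chain leaves, and the small subunit reads the mRNA. The P stalk of the large subunit (Rplp0, Rplp1, Rplp2 and Rpl12) recruits the elongation factors. Rpl5 and Rpl11 form a particle with 5S rRNA, and outside the ribosome that particle binds Mdm2 and restrains the breakdown of p53. Ribosomal protein mRNAs begin with a C and a run of pyrimidines, the 5′ terminal oligopyrimidine (TOP) tract, through which mTORC1 and the binding protein Larp1 set their translation and stability.

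RNA was sequenced from 4T1, a mammary carcinoma line of the BALB/c mouse, labelled wild type in all 4 libraries. The Mock group (2 libraries) received mRNA for EGFP, a fluorescent protein, and the uniSTING group (2 libraries) received mRNA for uniSTING, a designed mimic of STING, the adaptor that turns DNA sensing into interferon signalling. All 4 samples were thus given a foreign mRNA. The labels name a transfection agent or SS-OP lipid nanoparticles as the carrier but not which of them was used, and give no dose and no time; they number the preparations but do not say that these were separate cultures, so each p-value rests on a spread between libraries that may be technical.

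The start regions of 10 members are shown because a pyrimidine run at the start of transcription is known for this gene family, and because the 10 differ in how their mRNA levels changed. They were picked after the values were seen, 8 with a run of at least 8 pyrimidines and 2 (Rpl41 and Rpl37) without. Each window covers 60 bases, from 40 before to 20 after the RefSeq start on GRCm38.p6, on the strand of the gene; capitals mark the longest run of C and T in the window, or the first of equal runs. The first 7 belong to members that were higher in the uniSTING libraries, Rpl7a and Rplp2 to members that were lower, and Rps10 to a member that did not pass the test.
Rpl35 (chr2:39005112-39005171, minus strand): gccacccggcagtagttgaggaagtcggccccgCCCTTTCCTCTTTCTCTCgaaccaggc
Rps27 (chr3:90213629-90213688, minus strand): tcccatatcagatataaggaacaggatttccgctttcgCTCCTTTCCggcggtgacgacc
Rps27l (chr9:66946046-66946105, plus strand): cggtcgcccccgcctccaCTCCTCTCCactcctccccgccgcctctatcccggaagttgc
Rps24 (chr14:24490638-24490697, plus strand): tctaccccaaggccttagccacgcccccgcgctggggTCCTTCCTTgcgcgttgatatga
Rpl38 (chr11:114668540-114668599, plus strand): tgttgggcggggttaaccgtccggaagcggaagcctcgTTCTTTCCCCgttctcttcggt
Rpl41 (chr10:128549149-128549208, minus strand): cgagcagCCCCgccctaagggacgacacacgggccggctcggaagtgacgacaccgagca
Rpl37 (chr15:5116573-5116632, plus strand): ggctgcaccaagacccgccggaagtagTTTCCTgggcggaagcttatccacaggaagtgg
Rpl7a (chr2:26910767-26910826, plus strand): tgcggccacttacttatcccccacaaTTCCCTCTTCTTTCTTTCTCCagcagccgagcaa
Rplp2 (chr7:141447611-141447670, plus strand): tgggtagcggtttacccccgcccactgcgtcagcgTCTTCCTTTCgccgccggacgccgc
Rps10 (chr17:27635225-27635284, minus strand): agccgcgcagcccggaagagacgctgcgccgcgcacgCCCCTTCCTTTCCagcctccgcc
The longest run was 18 bases in Rpl35, 9 in each of Rps27, Rps27l and Rps24, 10 in Rpl38 and in Rplp2, 13 in Rps10 and 21 in Rpl7a, against 4 in Rpl41 and 6 in Rpl37.

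Mock replicates 1 and 2 held 17502694 and 22039546 counts, uniSTING replicates 1 and 2 held 18843543 and 25071840, and 17604 to 18478 genes held a count. The epithelial markers Epcam, Krt8, Krt18, Cdh1, Krt14 and Cldn4 each had at least 3133 counts in every library. Of 6 leukocyte markers, Itgam had no count, and Lyz2 had 155 and 290 counts in replicate 1 of Mock and uniSTING and 0 in replicate 2 of both. The summed level of the leukocyte list was 9.36 and 16.6 CPM (counts scaled to library size) in the replicate 1 libraries of Mock and uniSTING and 0 in the others, and that of 6 endothelial and fibroblast markers was 1.49 to 4.82 CPM. The median change of the members was 0.35 in the replicate 2 libraries, which held no count of the leukocyte markers, and 0.35 in the replicate 1 libraries.

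Ribosomal protein mRNAs took a larger part of the RNA in uniSTING cells. The members held 6.35% and 6.37% of all Mock counts, against 7.94% and 7.97% of all uniSTING counts, so the groups did not overlap. For 2 libraries against 2, an exact two-sided permutation test cannot give a p below 0.333, and the share was not tested further. A share is relative, so more of these mRNAs and less of other RNA cannot be told apart. In RNA from whole cultures, a change in the mix of cells and a change in RNA per cell cannot be told apart either.

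Gene by gene, edgeR's quasi-likelihood test called 69 of the 76 members higher in uniSTING, at an adjusted p under 0.05 over all 12972 genes tested, and 4 lower. Over all genes tested, 50.2% were called, 24.9% higher and 25.4% lower, so calls were common in both directions and the members lay mostly on the higher side. The median log2 fold change of the members was 0.34, against 0.0058 over all genes tested. Both uniSTING libraries lay above both Mock libraries for 70 members, against 37.8% of all genes tested, and below them for 4. In either direction, the groups did not overlap for 75.1% of all genes tested. The changes were modest: 16 members rose at least 1.5-fold, which 5.19% of all genes tested did, and Rpl17 alone rose at least 2-fold. Libraries of 1 group agreed closely over the members, with a median absolute log2 difference of 0.026 between the Mock and 0.022 between the uniSTING libraries. The widest gaps, in features picked out after their values were seen, were 0.34 for Rpl35a between the Mock libraries and 0.22 for Rpl26 between the uniSTING libraries.

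**Figure D1:**
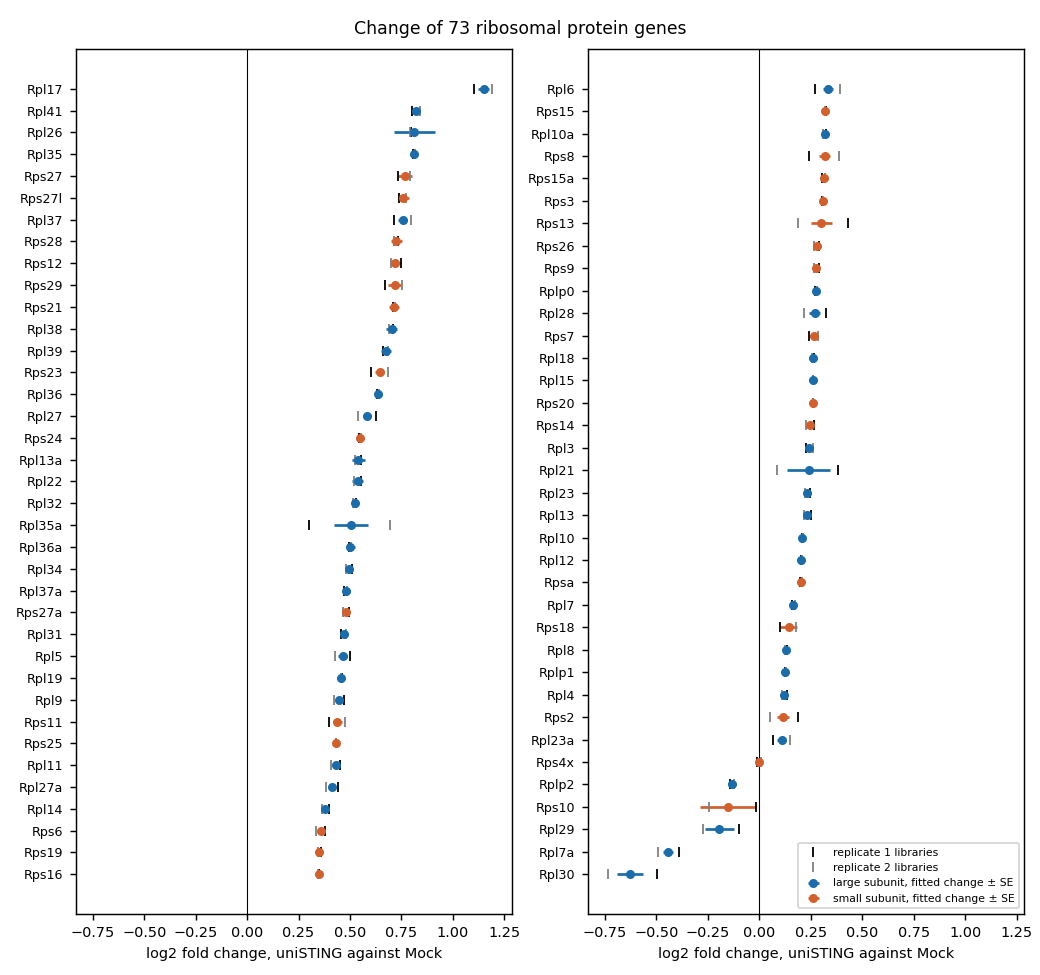
Log2 fold change of 73 of the 76 members (x axis, uniSTING against Mock), 1 row per gene in order of change, blue for the large and orange for the small subunit; points with bars are the fitted change ± SE, and ticks are the difference within replicate 1 and within replicate 2. Over all 76 members, 69 were called higher and 4 lower; with the trend of counts with merged exon length removed, 8 of those called higher were below 0, 6 of them past the test.

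Among large subunit proteins, the rises were led by Rpl17, whose protein sits at the mouth of the exit tunnel. Rpl17, on chromosome 18, read 378 and 379 CPM in Mock against 812 and 867 CPM in uniSTING. The uniSTING values were more than 1.5 times the Mock values in every pairing, and the fitted change was 2.22-fold (log2 1.15, SE 0.03, adjusted p = 2.76e-10). Rpl41 encodes the shortest protein of the ribosome, a peptide at the contact between the subunits. It read 1868 and 1858 CPM in Mock and 3250 and 3329 CPM in uniSTING, a rise of 1.77-fold (log2 0.82, SE 0.01, adjusted p = 3.42e-11) with groups far apart.

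Rpl35, another protein at the tunnel exit, read 403 CPM in both Mock libraries, against 704 and 709 CPM in uniSTING, a log2 change of 0.81 (SE 0.02, adjusted p = 1.41e-10). The libraries of each group were nearly equal and the groups did not overlap. Rpl35 (GRCm39 chr2:38891592-38895636, minus strand) shares 66.2% of its exon bases with Wdr38 and Arpc5l, and reads in shared bases cannot be assigned without strand. Rpl37, a zinc-binding protein, rose from 327 and 318 CPM to 537 and 552 CPM (log2 0.76, SE 0.02, adjusted p = 1.18e-09). Rpl26, at the tunnel exit and a site of UFM1 modification, was scarce, at 17 and 14.5 CPM in Mock and 29.8 and 25.5 CPM in uniSTING. Its libraries spread more than those of the abundant members, yet the groups stayed apart (log2 0.81, SE 0.10, adjusted p = 4.69e-05). Rpl38, required for patterning of the embryonic skeleton, rose by 0.70 on the log2 scale, Rpl39 of the tunnel wall by 0.68 and Rpl36 by 0.64.

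The 9 members that line the tunnel or surround its exit (Rpl4, Rpl17, Rpl19, Rpl22, Rpl23a, Rpl26, Rpl31, Rpl35 and Rpl39) were all called higher (median log2 fold change 0.54), 4 of them at least 1.5-fold. With the trend of mature transcript length removed 7 were called higher and 1 lower, with a median of 0.15. Rpl4, which narrows the tunnel, and Rpl23a, the docking point for factors on the new chain, changed least in that set, by 0.12 and 0.11, and both turned lower when a length trend was removed (-0.05 and -0.20). In the 5S particle, Rpl5 read 1504 and 1586 CPM in Mock and 2128 and 2136 CPM in uniSTING (log2 0.46, SE 0.02, adjusted p = 1.83e-08). Rpl11 read 636 and 647 CPM in Mock and 871 and 859 CPM in uniSTING (log2 0.43, SE 0.02, adjusted p = 7.05e-09). Both genes of the 5S particle were higher in both uniSTING libraries, and both kept that call with each length trend removed.

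The P stalk did not move as a block: its median was 0.17, and -0.13 with the trend of mature transcript length removed. Rplp0, its base, read 3281 and 3297 CPM in Mock and 3962 and 4008 CPM in uniSTING, a log2 change of 0.28 (SE 0.01, adjusted p = 5.55e-09). Rpl12, which sits at the foot of the stalk, rose by 0.20 (SE 0.01), a call that was lost with the trend of mature transcript length removed (0.02, adjusted p = 0.30). Rplp1 and Rplp2 encode the paired acidic proteins that make up the arms of the stalk. Rplp1 read 1488 and 1496 CPM in Mock and 1621 and 1635 CPM in uniSTING (log2 0.13, SE 0.01, adjusted p = 1.05e-05), and turned lower with the trend of merged exon length removed (-0.25). Rplp2 went the other way in every fit run: it read 390 and 391 CPM in Mock and 354 and 359 CPM in uniSTING, a log2 change of -0.13 (SE 0.02, adjusted p = 0.000224). The groups did not overlap for any of the 4 genes.

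The remaining 3 members that fell are also of the large subunit. Rpl30 (GRCm39 chr15:34440651-34443786, minus strand), whose yeast counterpart binds its own transcript, read 59.5 and 63.0 CPM in Mock and 42.0 and 37.6 CPM in uniSTING (log2 -0.63, SE 0.06, adjusted p = 1.4e-05). Rpl7a (GRCm39 chr2:26800776-26803330, plus strand) read 591 and 612 CPM in Mock and 451 and 435 CPM in uniSTING (log2 -0.44, SE 0.02, adjusted p = 7.35e-08). Neither gene's groups overlapped, and both were lower in every fit run. Rpl29, a protein that mice can live without, read 33.7 and 35.3 CPM in Mock and 31.4 and 29.1 CPM in uniSTING (log2 -0.19, SE 0.07, adjusted p = 0.0386), and DESeq2 did not make that call (adjusted p = 0.156), nor did edgeR once replicate 1 or 2 of Mock or replicate 2 of uniSTING was left out (adjusted p = 0.0667, 0.121 and 0.177). Of the 100-base stretches of the Rpl30 transcript, 53.5% also occur in another gene's transcript. The same holds for 73.5% of those of Rpl7a, 50.1% of those of Rpl29 and 17.2% of those of Rplp2. That other gene can be a copy elsewhere, where uniquely mapped reads are lost, or a gene annotated at the same place. Named pseudogenes numbered 9 for Rpl30, 13 for Rpl7a, 3 for Rpl29 and 0 for Rplp2. The part of shared sequence in these falls was not tested.

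Other large subunit proteins were picked out after their values were seen. Rpl3, which reaches toward the peptidyl transferase centre, rose by 0.24 and Rpl10, which joins last and contacts the P site, by 0.21, the latter turning lower with the trend of mature transcript length removed (-0.09). Rpl8, a core protein, rose by 0.13 and Rpl7 by 0.17, and both turned lower with that trend removed (-0.15 and -0.04).

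**Figure D2:**
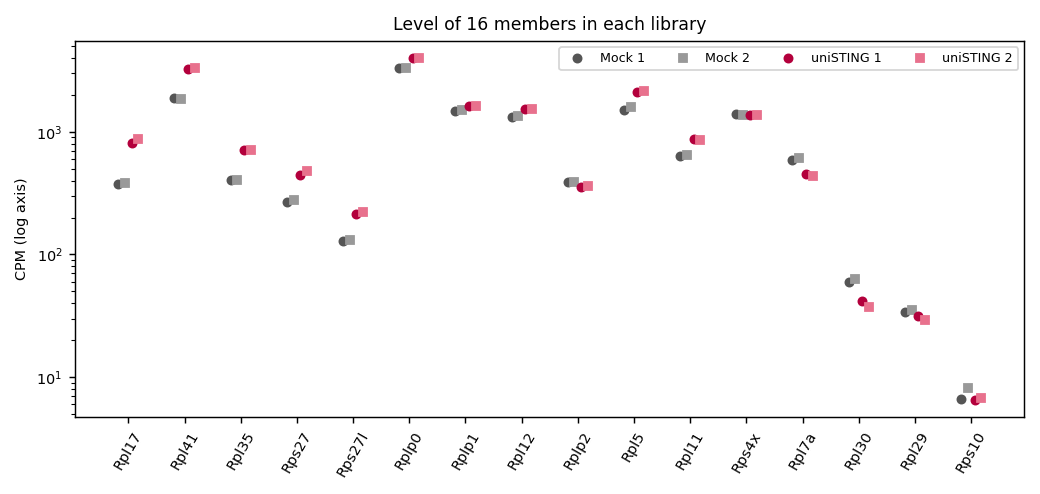
Level of 16 members in each of the 4 libraries, in CPM on a log axis, with circles for replicate 1 and squares for replicate 2, grey for Mock and red for uniSTING. Rpl17, Rpl41 and Rpl35 stand higher in both uniSTING libraries, Rpl7a and Rpl30 lower, and the points of Rps4x lie on top of each other at 1364 to 1387 CPM.

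In the small subunit, 29 of 31 members were called higher and none lower, against 19 and 8 with the trend of mature transcript length removed. Rps27, a zinc-finger protein, read 266 and 276 CPM in Mock and 443 and 479 CPM in uniSTING, a rise of 1.70-fold (log2 0.77, SE 0.03, adjusted p = 2.05e-08). Its paralog Rps27l, a p53 target gene on chromosome 9 (GRCm39 chr9:66853368-66856798, plus strand), read 129 and 130 CPM in Mock and 215 and 223 CPM in uniSTING (log2 0.76, SE 0.03, adjusted p = 4.99e-09). The pair had Mock means of 260 and 159 CPM per kilobase of merged exon and nearly the same change. Of the Rps27 transcript, 98.4% of the 100-base stretches occur in another gene's transcript, and of the Rps27l transcript none do.

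The 14 proteins of the head of the small subunit had a median change of 0.35, with 13 called higher. With the trend of mature transcript length removed 10 were called higher and 4 lower, with a median of 0.13. Rps28, at the mRNA exit, rose by 0.73, and Rps29 and Rps12, picked out after their values were seen, both by 0.72. Rps19, the gene most often mutated in Diamond-Blackfan anaemia, rose by 0.35. Rps25, needed for initiation at several viral internal entry sites, rose by 0.43, and Rps27a, made as a fusion with ubiquitin, by 0.48. Rps15, whose tail reaches the decoding site, rose by 0.32, a call that was lost with the trend of merged exon length removed (-0.02, adjusted p = 0.156). Rps3, at the mRNA entry, rose by 0.31, whereas Rps18 rose by 0.14 and turned lower with the trend of mature transcript length removed (-0.24). DESeq2 did not call Rps18 (adjusted p = 0.129), nor did edgeR with replicate 2 of Mock or of uniSTING left out (adjusted p = 0.117 and 0.153).

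Of 16 members in the body and platform, 15 were called higher, with a median of 0.31. With the trend of mature transcript length removed 8 were called higher and 4 lower, with a median of 0.06. Rps21 read 209 and 214 CPM in Mock and 342 and 352 CPM in uniSTING (log2 0.71, SE 0.02, adjusted p = 3.2e-09). Rps23, at the decoding centre, rose by 0.64. Rps6, whose phosphorylation by the S6 kinases is the common readout of mTORC1 activity, read 1421 and 1447 CPM in Mock and 1847 and 1827 CPM in uniSTING (log2 0.36, SE 0.01, adjusted p = 6.63e-09). The groups were again apart for each of these genes. Rpsa, also known as the laminin receptor precursor, read 4593 and 4626 CPM in Mock and 5270 and 5335 CPM in uniSTING, and rose by 0.20. Rps26, beside the mRNA exit, rose by 0.28, Rps13 by 0.30 and Rps2 by 0.12, and with the trend of mature transcript length removed Rps26 and Rps2 turned lower (-0.05 and -0.12) while Rps13 did not pass (-0.07, adjusted p = 0.319). Without Mock replicate 1 the Rps2 call was lost (0.06, adjusted p = 0.0784).

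Just 3 members did not pass the test. Rps4x, an X-linked gene for a protein of the small subunit body, read 1387 and 1364 CPM in Mock and 1377 and 1371 CPM in uniSTING. Its groups overlapped and its log2 change was -0.0012 (SE 0.01, adjusted p = 0.952), although it was called lower with each length trend removed (-0.22 with merged exon length). Rps10, at the mRNA entry and ubiquitinated on collided ribosomes, had 117 and 179 Mock counts and 123 and 168 uniSTING counts, with overlapping groups (log2 -0.15, SE 0.14, adjusted p = 0.384). It was called lower with the mature length trend removed (-0.42, adjusted p = 0.0285), and 28.7% of its exon bases are shared with Gm15420 and a gene annotated as RPS10-NUDT3. Rpl21 had 180 and 240 Mock counts and 252 and 288 uniSTING counts, or 10.2 and 10.9 against 13.5 and 11.6 CPM, which do not overlap (log2 0.24, SE 0.10, adjusted p = 0.0797), and without uniSTING replicate 2 its rise passed the test (0.35, adjusted p = 0.0307). Rps10, Rpl21 and Rpl26 were the members nearest the minimum of 50 counts. Rpl24, just outside it, had 19 and 17 Mock counts and 6 and 13 uniSTING counts, with 80.1% of its transcript's 100-base stretches in another gene's transcript and 47.0% of its exon bases shared with Gm28037. The tissue-restricted paralogs Rpl3l, Rpl10l and Rpl39l had no count in any library.

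The large and small subunit medians lay close together. The median change was 0.38 over the 45 large subunit members and 0.32 over the 31 small subunit members, a gap of 0.06. In each of the 4 pairings of a uniSTING with a Mock library the gap lay between 0.0062 and 0.044, and without Mock replicate 2 it was -0.02. The large subunit held 3.82% and 3.83% of counts in Mock and 4.78% and 4.81% in uniSTING, and the small subunit 2.53% and 2.54% in Mock and 3.15% and 3.17% in uniSTING. The 4 members that fell were all of the large subunit, and members with a rise of at least 1.5-fold were 8 in each.

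Ribosomal protein genes that the naming rule leaves out are given for comparison. Rps3a1 (log2 0.21), Fau, which encodes a ubiquitin-like protein fused to a small subunit protein (0.35), and Rack1, the signalling scaffold on the head (0.16), were all called higher. With the trend of merged exon length removed, Rps3a1 was called lower (-0.08), and Fau (0.06) and Rack1 (0.20) stayed higher. With that of mature transcript length removed, Rps3a1 (-0.04, adjusted p = 0.0453) and Fau (-0.05, adjusted p = 0.0301) were called lower. Rack1 then did not pass (0.0075, adjusted p = 0.640). The Rpl22 paralog Rpl22l1 rose by 0.24 (SE 0.06), against 0.54 (SE 0.03) for Rpl22. Rpl7l1, a relative of Rpl7 with a role in assembly, rose by 0.12, and Rps27rt, an intron-less copy of Rps27, by 0.53. The Rps27rt libraries spread widely, at 109 and 94.1 CPM in Mock and 168 and 126 CPM in uniSTING. With the merged exon trend removed, Rpl22l1 (0.07, adjusted p = 0.353) and Rps27rt (0.12, adjusted p = 0.400) did not pass. Rpl7l1 stayed higher (0.08, adjusted p = 0.0329). Rpl6l, classed as a pseudogene and so not a member, rose by 0.33, the same to 2 decimals as Rpl6. With the merged exon trend removed, Rpl6l did not pass (0.03, adjusted p = 0.410), whereas Rpl6 stayed higher (0.27).

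Levels of the members spanned a wide range in spite of the fixed proportions of the particle. Per kilobase of merged exon, the highest Mock means were those of Rplp1 (2990 CPM per kb), Rplp0 (1983) and Rps15 (1671), and the lowest those of Rpl21 (3.10), Rps10 (3.19) and Rpl26 (10.9). Rpl19 (1633 CPM per kb) and Rpl41 (1595) followed the first 3. Taken per kilobase of reference transcript instead, the Mock level had a Spearman rho of 0.04 with the percentage of shared sequence over 76 members. Whether reads lost to copies elsewhere account for the low levels of single members was not tested. Merged exon length counts every annotated exon once: it was 6256 bases for Rps24, whose reference transcript has 1613 bases, and 6270 for Rps15a, whose reference transcript has 5130, so the level per kilobase depends on the length used.

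The size of the change went with the length of the gene. Over the 76 members, the log2 fold change fell with merged exon length (Spearman rho -0.32, -0.26 in the large and -0.43 in the small subunit), with the length of the reference mature transcript (-0.46) and most with coding length (-0.54, with -0.45 and -0.67 in the subunits). These are descriptions over genes that share the same libraries, and genes are not independent replicates. The relation was not particular to the ribosome: over the 7721 protein-coding genes tested above 16 CPM it was -0.49 with merged exon length and -0.59 with coding length. Differences between the libraries of 1 group had a rho of -0.10 (Mock) and 0.17 (uniSTING) with coding length. The change also had a rho of -0.25 with the GC content of the transcript.

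Sorted by coding length, the 25 shortest members (75 to 396 bases) had a median change of 0.54 and 12 of them rose at least 1.5-fold. The next 25 (399 to 552 bases) had a median of 0.35 and 4 such members, and the 26 longest (564 to 1257 bases) a median of 0.26 and none. With the trend of mature transcript length removed these medians were 0.23, 0.05 and -0.0046. Exceptions stood on both sides. Rpl17, with 552 coding bases, rose most, and Rpl30 and Rplp2, with 345 each, fell. Of the 3 shortest genes by merged exon length, Rpl36 (383 bases) rose by 0.64 and Rpl38 (542 bases) by 0.70, but Rplp1 (499 bases) by 0.13. Of the 3 longest, Rps24 rose by 0.55, Rps19 (4685 bases) by 0.35 and Rps15a by 0.31.

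**Figure D3:**
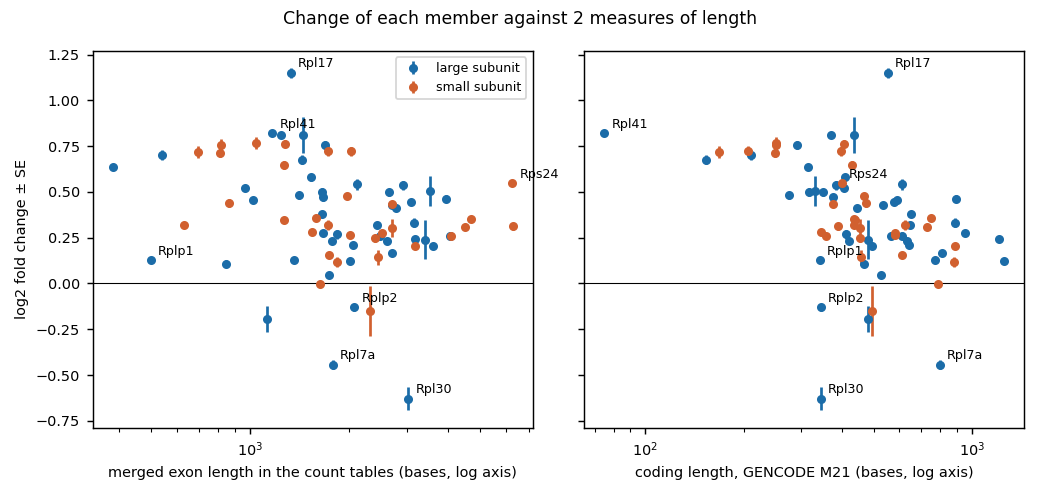
Log2 fold change ± SE (y axis) of each member against its merged exon length (left) and its coding length (right), in bases on log axes, blue for the large and orange for the small subunit. The points fall from left to right, with a Spearman rho of -0.32 on the left and -0.54 on the right; Rpl17 lies above the rest, and Rpl30, Rpl7a and Rplp2 lie below 0.

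Because length moved with the change over all genes, each library's trend of counts with length was removed and the test repeated. With merged exon length, 59 members were called higher and 11 lower, against 22.9% and 22.7% of all genes tested, and the median was 0.22. With merged exon length and then GC content, 59 were called higher and 9 lower (22.4% and 21.8% of all genes tested; median 0.23). With mature transcript length, 44 were called higher and 20 lower (21.9% and 21.2%; median 0.09), so the rise of the family was smaller there, and 19 of the members called higher were below 0, 14 of them past the test. Members with a large rise stayed higher: Rpl17 at 0.90 with merged exon length and 0.85 with mature length, Rpl41 at 0.55 and 0.43, Rpl35 at 0.55 and 0.56. Rpl7a (-0.64 and -0.70) and Rplp2 (-0.29 and -0.38) stayed lower, as did Rpl30 (-0.70 with merged exon length). In all 3 fits the large and small subunit medians were close, at 0.23 and 0.21, 0.24 and 0.22, and 0.10 and 0.09. Within the members a relation with coding length remained, with a rho of -0.45 after removal of the merged exon trend and -0.36 after removal of the mature length trend.

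**Figure D4:**
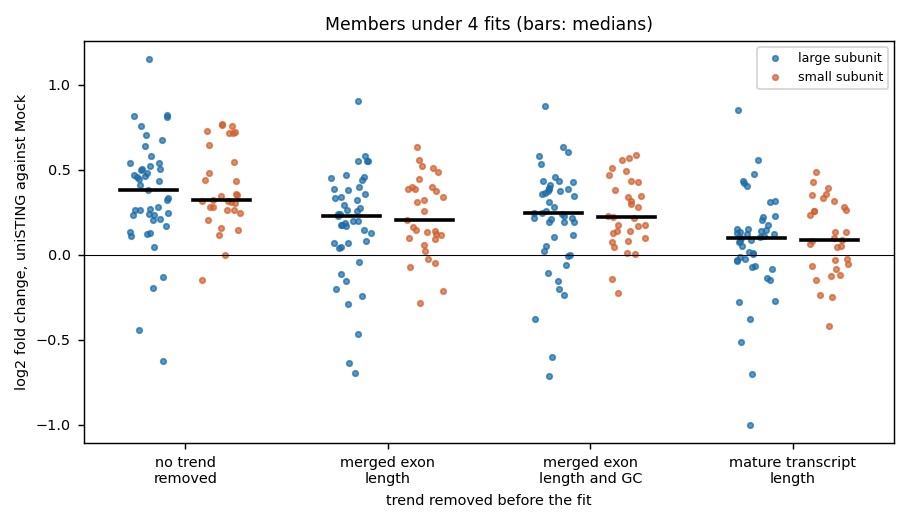
Log2 fold change of each member (y axis) without and with each trend removed, 1 point per member, blue for the large and orange for the small subunit, black bars for medians. The medians over all members were 0.34 with no trend removed, 0.22 and 0.23 with merged exon length and with length and GC, and 0.09 with mature transcript length.

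Shared sequence and overlapping genes touch many members. In 32 members over 50% of the 100-base stretches of the transcript occur in another gene's transcript; of these, 29 were called higher and 3 lower, with a median of 0.35. In the other 44 members, 40 were called higher and 1 lower, with a median of 0.33. Among large rises, such stretches made up 83.0% of the Rpl35 and 88.9% of the Rps12 transcript, against 13.0% of the Rpl41 transcript. Reads counted on named ribosomal protein pseudogenes made up 0.423% and 0.419% of counts in Mock and 0.447% and 0.442% in uniSTING. Another gene overlaps over 10% of the exon bases of 13 members, Rpl35 and Rpl23a (62.3%) most, and 10 of these were called higher and 2 lower. Among them were Rpl13a (0.54), Rpl32 (0.52), Rpl31 (0.47) and Rpl5.

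A RefSeq promoter was matched for 56 of the 76 members. A run of at least 8 pyrimidines between 40 bases before and 20 after the start, as in the windows above, was found in 30 of the 56 (53.6%), against 24.0% of 27025 promoters. Of 5 motifs searched on both strands over 300 bases, from 250 before to 50 after the start, the ETS-type CGGAAG was in 39 (69.6%, against 17.2%) and the GC box GGGCGG in 34 (60.7%, against 35.9%). AAGATGG, a YY1-like motif that can share its AAG with CGGAAG, was in 8 (14.3%, against 6.48%). The NRF1-like GCATGCGC was in 2 (3.57%, against 2.80%) and TATAAA in 5 (8.93%, against 14.2%). A match is a description of letters and not a bound site. Members with and without these features had similar medians. The 30 members with a long pyrimidine run had a median change of 0.39 and a range from -0.44 to 0.81, and those without had a median of 0.35, while members with and without CGGAAG had medians of 0.36 and 0.38. The longest of the runs shown, in Rpl7a, belonged to a member that fell.

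The genes that make and assemble ribosomes are given beside the 24.9% and 25.4% of all genes tested that were called higher and lower. Of 16 genes of RNA polymerase I transcription, which makes ribosomal RNA, 4 were called higher and 7 lower (median -0.09), with Polr1a, the largest polymerase subunit, falling from 120 and 119 CPM to 62.1 and 61.9 CPM. Taf1d of that list rose by 0.31. Of 33 factors of large subunit assembly, 10 were called higher and 9 lower (median 0.03, and -0.04 with the merged exon trend removed), with Mdn1, a very large ATPase, at -0.88 and Mrto4 at 0.34, and these shares are near those of all genes tested. Of 32 factors of small subunit assembly, 7 were called higher and 13 lower (median -0.04), with Utp20 at -0.92 and Emg1 at 0.43. Of 8 proteins of small nucleolar particles, 3 were called higher and none lower (median 0.02, and -0.02 with the mature length trend removed). With the merged exon trend removed, 3 of the polymerase I genes were higher and 9 lower, and 7 of the small subunit assembly factors were higher and 17 lower. Polr1a was then at -0.70, Utp20 at -0.73 and Mdn1 at -0.45, while Taf1d was at 0.47, Emg1 at 0.45 and Mrto4 at 0.23.

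Among translation factors, 5 of 6 elongation factors were called higher (median 0.19) and Eef2, the translocase, was lower, at -0.29. Of 27 initiation factors, 15 were called higher and 7 lower (median 0.06, and -0.0024 with the mature length trend removed), with Eif3a at -0.55, Eif4b at -0.39 and Eif4g1 at -0.35. Other TOP mRNAs gave 16 higher and 4 lower of 25 (median 0.16, and -0.09 with the mature length trend removed). Tpt1, a short and abundant TOP mRNA, rose by 0.42, and Pabpc1, the poly(A)-binding protein, changed by -0.34. Of 15 genes that set TOP mRNA use or ribosomal protein transcription, 1 was called higher, Cnbp, a TOP-binding protein (0.25), and 8 were lower. Their median was -0.16, and -0.0085 with the merged exon trend removed, with 2 higher and 7 lower. With the mature length trend removed it was -0.03, with 3 higher and 6 lower. Larp1 read 423 and 424 CPM in Mock and 261 and 256 CPM in uniSTING (log2 -0.71, SE 0.02), with no overlap. Eif4ebp2, a translational repressor under mTORC1, was at -0.58 and Myc at -0.41.

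The mitochondrial ribosome, built from other nuclear genes, moved the same way as the cytosolic one. Of its 77 genes tested, 58 were called higher and none lower, with a median of 0.26, and Mrpl20 rose by 0.77. Their share of counts was 0.400% and 0.403% in Mock and 0.481% and 0.480% in uniSTING. With the trend of mature transcript length removed, 34 mitochondrial genes were called higher and 9 lower. The mitochondrial median was then 0.10, beside 0.09 for the cytosolic members. With the merged exon trend removed, 42 mitochondrial genes were called higher and 6 lower. Of 300 named pseudogenes of cytosolic ribosomal proteins, 80 had enough counts to be tested; 25 were called higher and 7 lower, with a median of 0.23 that turned to -0.13 with the merged exon trend removed.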

How the data were processed

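Per the file headers, the authors counted paired-end reads per gene with featureCounts 2.0.1 over exons, without a strand option and without an option to assign reads to overlapping genes, on uniquely mapped alignments and the Ensembl release 103 annotation of GRCm39. The deposited values are raw counts. Reads were aligned with HISAT2, per the submitters' processing notes, which name no version of it. The deposited merged exon length per gene (a length in bases, 1 column of each file, per the file headers) was used as the gene length.

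An identifier table gave symbols to 52093 of 53647 identifiers; 3 older symbols of polymerase I subunits were replaced. The test of the counts was that of edgeR 4.0.16, run in R 4.3.3 (TMM, filterByExpr with a minimum count of 10 and total of 15, glmQLFit and glmQLFTest on the group, Benjamini-Hochberg adjustment over 12972 genes, threshold 0.05). The approximate SE follows from the F statistic. CPM uses TMM-scaled library sizes. Single-library differences used log2(CPM + 0.5). Biotypes, reference transcripts, coding lengths and shared 100-base stretches came from GENCODE M21 by gene identifier; start regions came from RefSeq (GRCm38.p6). Trends with length and GC were removed per library by lowess (span 0.3) and entered as offsets. The scripts were tested on simulated data.

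The members and lists were chosen with earlier results of these data known. Members named by rule were the 8 largest rises with groups apart, every member that fell or did not pass, the P stalk and 5S genes, the extremes of level per kb and of length, and those nearest the minimum; others were picked out after their values were seen. Some genes these rules name are not reported here. Alternatives were DESeq2's size factors, TMM without the members, 2 other filters on low counts (none, or 1 CPM in 2 libraries), DESeq2 1.42.0, limma-voom (limma 3.58.1), the replicate number as a block, each library left out, trend removal, and minimums of 10 and 500 counts. Chosen after seeing the data were removal of the mature length trend or of length and GC, leaving out members with over 50% shared sequence or over 10% overlap, keeping pseudogene names, each replicate number alone, and other measures of length.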

Additional observations from a re-analysis of the deposited data

How the results depend on the processing

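DESeq2's size factors, DESeq2, limma-voom, both low-count filters, TMM without the members and a minimum of 10 counts kept the count of members called higher and lower, the median, the gap between the subunits and the relation with merged exon length within the spread between replicates or within 1.5 times. Leaving out 1 library gave 67 to 69 members higher, 3 to 4 lower, a median of 0.34 to 0.35, a relation with length of -0.32 to -0.30 and a gap between large and small subunit of -0.016 (without Mock replicate 2) to 0.046. The change of Rps10 then ranged from -0.29 to 0.0028 and that of Rps4x from -0.015 to 0.0020. The labels do not say that replicate numbers pair the libraries. Deviations of same-numbered libraries had a correlation of 0.53 over 7970 genes, and with the replicate block 69 members were higher, 4 lower, the median was 0.34, the gap 0.06 and the relation with length -0.32, with no named call changed.

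With the merged exon trend removed, 11 members were lower, the median was 0.22, the gap 0.023 and the relation with length 0.054. With length and GC removed these were 9, 0.23, 0.026 and 0.011. With mature length removed, 44 members were higher and 20 lower, with a median of 0.092, a gap of 0.0094 and a relation of -0.11. That the relation with length vanishes follows from the removal itself. A minimum of 500 counts gave a median of 0.35 and a relation of -0.30. Leaving out members with over 50% shared sequence gave 40 higher and 1 lower of fewer members and a relation of -0.30. Leaving out overlapping members gave 2 lower, a median of 0.32, a gap of 0.038 and a relation of -0.35. Keeping pseudogene names gave a median of 0.33 and a gap of 0.034, and replicate 1 alone a median of 0.35, a gap of 0.034 and a relation of -0.31. With mature or coding length in place of merged exon length the relation was -0.46 or -0.54. The cause of these shifts was not tested. A coding length from RefSeq proteins was not run, and the GENCODE coding length was used.

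Single members called higher were below 0, not all of them past the test, with merged exon length, mature length, and length and GC removed, in that order, at -0.20, -0.27 and -0.20 for Rpl23a, at -0.046, -0.012 and -0.061 for Rpl4, at -0.12, -0.15 and -0.010 for Rpl8, and at -0.25, -0.28 and -0.15 for Rplp1. With merged exon and mature length alone, Rps15 was at -0.024 and -0.084 and Rps2 at -0.073 and -0.12. With mature length alone, Rpl10 was at -0.085, Rpl7 at -0.038, Rps13 at -0.065, Rps18 at -0.24 and Rps26 at -0.054. Rpl21, which was not called with no trend removed, was at -0.025 with mature length removed. Rps10 was at 0.0028 without Mock replicate 2, and Rps4x at 0.00055 with TMM without the members, 0.0015 with the 1 CPM filter and 0.0020 without Mock replicate 1. With few counts (Rps10, Rpl21, Rpl26 and Rpl29), depth limits precision. With 2 libraries a group, the spread rests on the pooled estimate over genes.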
